A study of Heterocephalus glaber and Mus musculus with 9 samples.

Results

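The genes followed here are 7 cell-surface receptors that mark or serve splenic macrophages, namely Marco, Siglec1, Adgre1, Cd163, Axl, Mertk and Mrc1. They were chosen by name, by matching their symbols to the rows of a normalized count table without regard to case, and all 7 were found among its 12946 genes. None of them was at 0 in any spleen. The spleens came from 3 C57Bl/6N mice, 3 naked mole-rats (NM-Rs) with small spleens (ssNM-R, numbered 2, 3 and 6) and 3 NM-Rs with enlarged spleens (lsNM-R, numbered 1, 4 and 5), with 1 RNA-seq library per animal. The mice were males of 2 months. The ssNM-Rs were males of 30, 26 and 23 months, and the lsNM-Rs were of 24, 29 and 23 months, lsNM-R 4 being female and the others male. No animal was treated, and the NM-Rs were housed warmer than the mice. Species, age, housing and the genome used for alignment therefore change together, and their parts in any difference between NM-R and mouse cannot be told apart.

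Macrophages of the spleen filter the blood in separate compartments. In the mouse, marginal zone macrophages carry the scavenger receptor MARCO and take up blood-borne particles, metallophilic macrophages at the inner border of the marginal zone carry the sialic acid receptor sialoadhesin (Siglec1, CD169), and red pulp macrophages carry F4/80 (Adgre1) and clear aged red blood cells. CD163 takes up haemoglobin bound to haptoglobin, AXL and MERTK are receptor tyrosine kinases by which phagocytes recognise dying cells through bridging ligands such as GAS6, and MRC1 (CD206) is the macrophage mannose receptor. In RNA from whole spleen, fewer cells of a type and less RNA per cell cannot be told apart.

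In the mouse genome (mm9, GENCODE M1 annotation) Marco lies on chromosome 1 from 122371115 to 122401661 on the minus strand, and Siglec1 on chromosome 2 from 130894956 to 130912501, also on the minus strand. Adgre1 spans 57498109 to 57622952 of chromosome 17 on the plus strand, and Cd163 spans 124254669 to 124280545 of chromosome 6 on the plus strand. Axl is on the minus strand of chromosome 7 (26542292 to 26573724). Mertk (128524692 to 128628630) and Mrc1 (14151041 to 14253684) are on the plus strand of chromosome 2. The counts cover whole genes, and the longest annotated transcripts of the 7 genes hold between 17 exons (Marco and Cd163) and 30 exons (Mrc1). NM-R gene positions were not analysed here.

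The 250 bases upstream of the annotated starts of Marco and Siglec1 are shown because these are the defining genes of the marginal zone and metallophilic subsets, and because they moved in opposite directions between the species. Each sequence is given 5′ to 3′ on the strand of the gene in mm9. Capitals mark the letters GAGGAA, one form of the sequence recognised by the macrophage transcription factor PU.1 (Spi1), which were searched on both strands. Shorter or other forms were not searched.
Marco, chr1:122401662-122401911, minus strand: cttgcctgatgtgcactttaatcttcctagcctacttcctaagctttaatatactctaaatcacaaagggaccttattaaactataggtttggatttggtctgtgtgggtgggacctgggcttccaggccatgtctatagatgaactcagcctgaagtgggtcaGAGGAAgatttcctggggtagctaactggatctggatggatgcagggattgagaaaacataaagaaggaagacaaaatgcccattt
Siglec1, chr2:130912502-130912751, minus strand: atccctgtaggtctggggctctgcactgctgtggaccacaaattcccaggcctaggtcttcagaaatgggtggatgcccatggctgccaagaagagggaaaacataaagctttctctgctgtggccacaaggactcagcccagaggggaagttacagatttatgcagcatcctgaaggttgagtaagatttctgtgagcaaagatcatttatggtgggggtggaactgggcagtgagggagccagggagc
The letters occurred 1 time upstream of Marco, on the strand of the gene, and 0 times upstream of Siglec1. They were present in 5156 of 22380 windows of this length (23.04%), so a match is common, and no match says only that these letters are not in this mouse window. Spi1 itself averaged 1764 ± 79.1 normalized counts in the 3 mice (SD) and 718 ± 82.6 in the 6 NM-Rs (SD) (limma adjusted p = 1.33e-06), a log2 fold change of -1.30.

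A normalized count is the number of reads of a gene divided by 1 size factor per library. The mouse libraries held 10441982 to 11180912 recovered reads. The NM-R libraries fell into 3 shallower ones with 7815326 to 8985705 reads (from ssNM-Rs 2 and 3 and lsNM-R 1) and 3 deeper ones with 16883689 to 18387599 (from lsNM-Rs 4 and 5 and ssNM-R 6). Values were compared as log2(normalized count + 1) in limma, and a gene is called when its p, adjusted over all 12946 genes, is under 0.05. The species were far apart across the whole table: 78.5% of all genes were called between NM-R and mouse, 39.7% as higher in NM-R and 38.8% as lower, and in 72.6% the 6 NM-R spleens did not overlap the 3 mice. A call against mouse is thus the common case, and the counts called in the gene lists below are to be read beside these shares. For 10 pan-macrophage genes found in the table the mean log2 value was 11.43 to 11.49 in the mice and 11.89 to 12.33 in the NM-Rs and was thus higher in every NM-R spleen than in any mouse. Their summed normalized counts were 42382 to 46992 in mice and 50480.0 to 68989 in NM-Rs. These genes did not rise as a whole. Of the 10, 5 were called higher, with the largest log2 fold changes in Cd14 (3.73) and C1qa (1.78). Csf1r (-1.03) and Ctss (-0.79) were called lower and 3 were not called.

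Of the 7 receptors, 5 were called lower in NM-R than in mouse spleens, 1 was called higher (Siglec1) and 1 was not called (Mrc1). The falls were steep in the subset markers Adgre1, Marco and Cd163 and shallow in the phagocytic kinases Axl and Mertk. The median log2 fold change of the 7 was -0.75, beside 0.01 over all genes. In 6 of the 7 (all but Mrc1) the NM-R spleens did not overlap the mice.

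**Figure D1:**
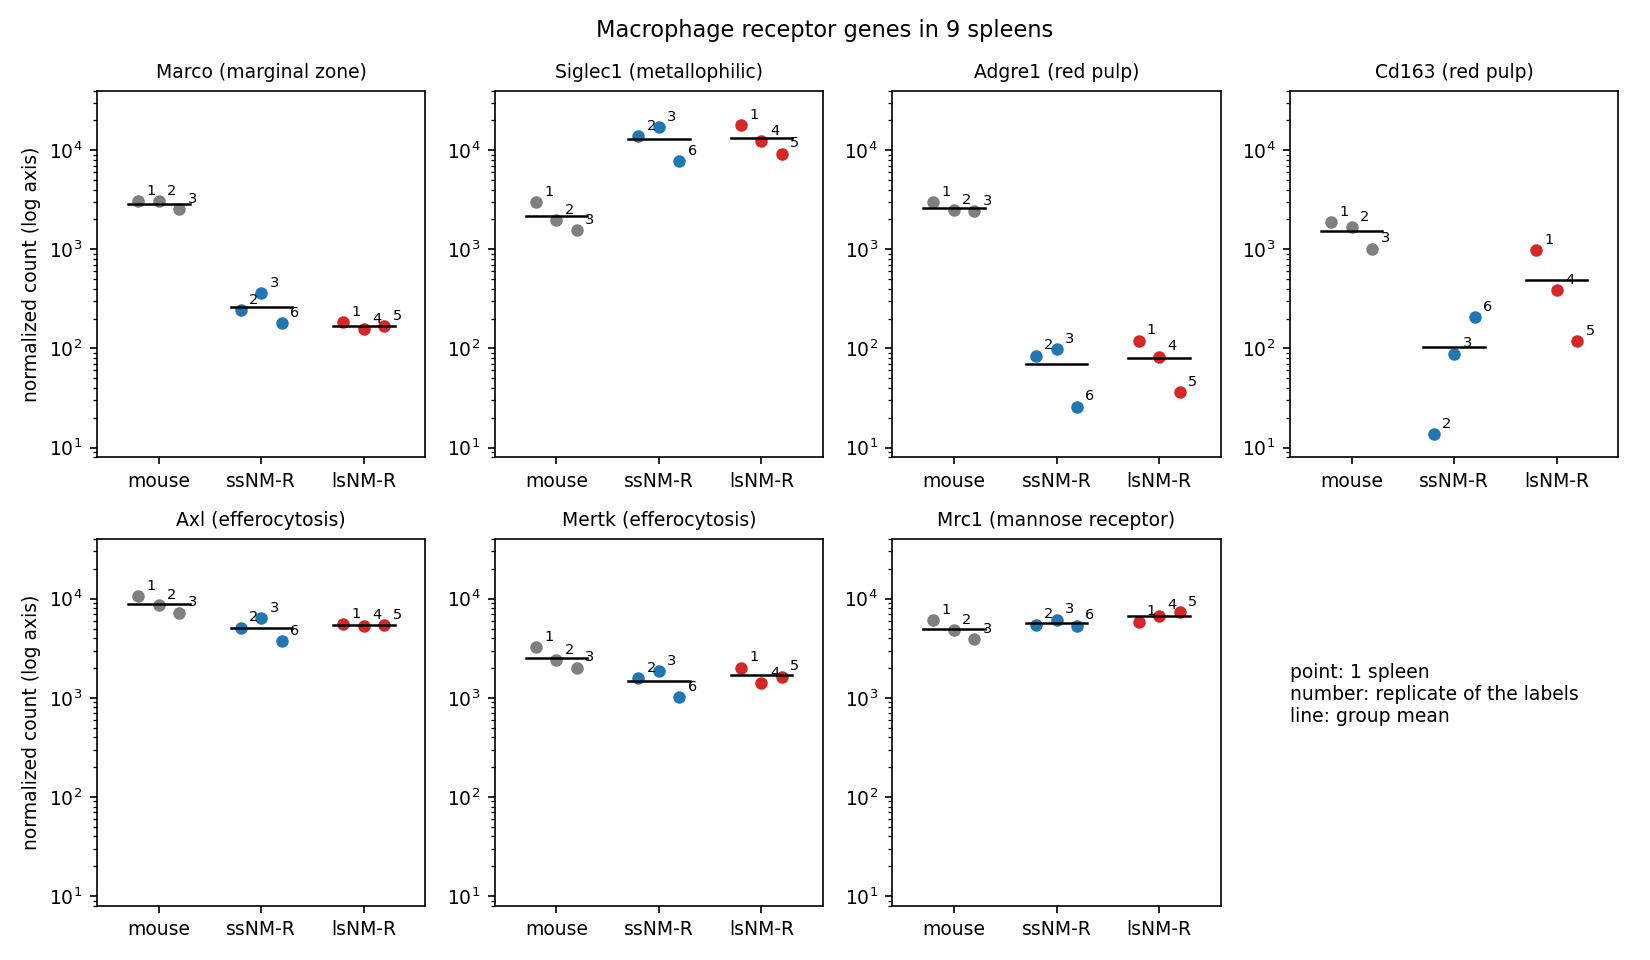
Normalized counts of the 7 receptors (log axis) in each of the 9 spleens, by group, with the replicate number beside each point and a line at the group mean. The NM-R points lie below all mice for Marco, Adgre1, Cd163, Axl and Mertk, above them for Siglec1, and for Mrc1 partly among and partly above them; Cd163 runs from 13.7 to 977 within the NM-Rs.

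Marco, the scavenger receptor of the marginal zone, was at 3039, 3054 and 2521 normalized counts in mice 1, 2 and 3. It was at 242, 362 and 179 in ssNM-Rs 2, 3 and 6, and at 185, 157 and 168 in lsNM-Rs 1, 4 and 5. The mice agreed closely with each other, and even the highest NM-R spleen, ssNM-R 3, was far below the lowest mouse. The lowest library held 131 Marco reads (lsNM-R 1). The log2 fold change was -3.51 for ssNM-R (95% confidence interval -4.00 to -3.02) and -4.07 for lsNM-R (-4.56 to -3.58), both against the same 3 mice (limma adjusted p = 3.83e-07 and 1.59e-07).

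Siglec1, the sialoadhesin of metallophilic macrophages, went the other way. It was at 2984, 1959 and 1569 normalized counts in mice 1, 2 and 3, at 13898, 17122 and 7799 in ssNM-Rs 2, 3 and 6, and at 17808, 12439 and 9244 in lsNM-Rs 1, 4 and 5. The lowest NM-R spleen, ssNM-R 6, was still above the highest mouse. The log2 fold change was 2.55 for ssNM-R (95% confidence interval 1.79 to 3.32) and 2.60 for lsNM-R (1.83 to 3.37), with limma adjusted p = 7.42e-05 and 6.74e-05.

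The ratio of Siglec1 to Marco inside a library does not depend on how libraries are scaled. It was 0.982, 0.641 and 0.622 in mice 1, 2 and 3, so a mouse spleen held more Marco than Siglec1 counts. It was 57.4, 47.3 and 43.5 in ssNM-Rs 2, 3 and 6 and 96.2, 79.5 and 55.0 in lsNM-Rs 1, 4 and 5. On the log2 scale the mean of the NM-Rs was 5.91 ± 0.44 (SD, n = 6) and that of the mice -0.45 ± 0.37 (SD, n = 3), a difference of 6.37 (2-sided exact permutation p = 0.0238, the smallest that 3 against 6 allows). This p was fixed in advance and adds nothing, because every NM-R was above every mouse for Siglec1 and below every mouse for Marco. The lsNM-Rs averaged 6.22 ± 0.41 and the ssNM-Rs 5.61 ± 0.21 (SD, n = 3 each), a difference of 0.61 with overlapping spleens (2-sided exact permutation p = 0.20, where 3 against 3 cannot go below 0.10). The 2 genes differ in length, so the ratio does not give the amounts of the 2 proteins. The lengths of their NM-R gene models were not compared with those of the mouse. Such lengths enter the difference between NM-R and mouse, where their part was not tested, but not the comparison among NM-Rs.

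Adgre1, which encodes the F4/80 antigen of red pulp macrophages, had the largest fall of the 7. It was at 3014, 2469 and 2429.8 normalized counts in mice 1, 2 and 3, but at 84.8, 97.6 and 25.9 in ssNM-Rs 2, 3 and 6 and at 120.1, 82.5 and 36.4 in lsNM-Rs 1, 4 and 5. The mouse mean was 35.4 times the NM-R mean, and every NM-R spleen was far below the mice. The NM-R values rest on 41 to 117 reads per library, against 2271 to 3004 in the mice. The log2 fold change was -5.30 (SE 0.45, 95% confidence interval -6.30 to -4.31, limma adjusted p = 2.10e-06). Against the same mice it was -5.43 for ssNM-R, which became -4.84 without ssNM-R 6, and -5.18 for lsNM-R. The paper describes Adgre1 as evolving rapidly and asks for caution with differences in immune cell markers between NM-R and mouse. Whether the NM-R rows of the 7 receptors count the homologues of the same genes was not tested.

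Cd163, the haemoglobin-haptoglobin receptor, was the most uneven of the receptors among NM-Rs. It was at 1888, 1688 and 1018 normalized counts in mice 1, 2 and 3. It was at 13.7, 88.6 and 205 in ssNM-Rs 2, 3 and 6 and at 977, 386 and 119 in lsNM-Rs 1, 4 and 5. The highest NM-R, lsNM-R 1, came close to the lowest mouse, and the lowest, ssNM-R 2, held only 10 reads of this gene, so that the highest NM-R value was 71.5 times the lowest. The mouse mean was 5.14 times the NM-R mean (9.43 times without lsNM-R 1), and the log2 fold change was -3.29 (SE 0.81, 95% confidence interval -5.11 to -1.46, limma adjusted p = 0.00398). Cd163 was called lower in ssNM-R (log2 fold change -4.52, adjusted p = 0.00148 in limma), a change that became -3.45 without ssNM-R 2 and -5.35 without ssNM-R 6. In lsNM-R the change of -2.06 was not called (95% confidence interval -4.16 to 0.05, limma adjusted p = 0.0708); it was -1.27 without lsNM-R 5 (adjusted p = 0.251), and was called without lsNM-R 1 (-2.78, adjusted p = 0.0304) and, through the estimate of the spread, without ssNM-R 2 (0.0203) or ssNM-R 6 (0.0407) and with only the compared groups (0.0225).

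Axl, the receptor kinase for GAS6-coated dying cells, was lower by a smaller factor. It was at 10680.5, 8623 and 7241 normalized counts in mice 1, 2 and 3, at 5118, 6341 and 3720.3 in ssNM-Rs 2, 3 and 6, and at 5527, 5349 and 5425 in lsNM-Rs 1, 4 and 5. The 3 lsNM-Rs were nearly alike, while the ssNM-Rs spread around them. The mouse mean was 1.69 times the NM-R mean (log2 fold change -0.75, SE 0.17, limma adjusted p = 0.00232).

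Mertk, the sister kinase of Axl, was at 3226, 2390.3 and 2021 normalized counts in mice 1, 2 and 3. It was at 1569.9, 1871 and 1010.5 in ssNM-Rs 2, 3 and 6 and at 2011, 1417 and 1638 in lsNM-Rs 1, 4 and 5. The lowest mouse and the highest NM-R, lsNM-R 1, almost met. The log2 fold change was -0.69 (SE 0.21, 95% confidence interval -1.16 to -0.22, limma adjusted p = 0.0126), but without mouse 1 it was -0.50 and not called (adjusted p = 0.0753). Against the same mice Mertk was called lower in ssNM-R (-0.80, limma adjusted p = 0.0131; 0.0588 without mouse 1) and missed the threshold in lsNM-R (-0.58, adjusted p = 0.0525). In lsNM-R it was called without mouse 3 (-0.73, adjusted p = 0.0375), ssNM-R 3 (0.0417), ssNM-R 6 (0.0182) or lsNM-R 1 (-0.71, adjusted p = 0.0415). It was also called in lsNM-R at equal totals (limma adjusted p = 0.0385), with libraries scaled to equal pan-macrophage levels (0.000454) and with only the compared groups (0.0252). On recovered reads it was called by edgeR (adjusted p = 0.0433) and DESeq2 (0.0286). With a replicate block, which for lsNM-R sets only lsNM-R 1 against mouse 1, the change was -0.68.

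Mrc1, the mannose receptor, was the one member whose NM-R values overlapped those of the mice. It was at 6089, 4859 and 3878 normalized counts in mice 1, 2 and 3, at 5464, 6154 and 5356 in ssNM-Rs 2, 3 and 6, and at 5861, 6760.2 and 7376 in lsNM-Rs 1, 4 and 5. The values of ssNM-Rs 2 and 6 and of lsNM-R 1 lay inside the range of the mice, ssNM-R 3 lay just above it, and lsNM-Rs 4 and 5 were the highest of all. The log2 fold change of 0.33 was not called (95% confidence interval 0.01 to 0.65, limma adjusted p = 0.0536), and became 0.50 without mouse 1 (adjusted p = 0.00818) and 0.38 without lsNM-R 1 (0.0407), both called. Against the same mice, lsNM-R was called higher (0.45, limma adjusted p = 0.0304). This call was lost without mouse 2 (0.0737), mouse 3 (0.118), lsNM-R 4 (0.0714) or lsNM-R 5 (0.0976). It was also lost at equal totals (limma adjusted p = 0.0548), under quantile normalization (0.127) and with a depth term (0.113). With a replicate block, which for lsNM-R sets only lsNM-R 1 against mouse 1, the change was -0.055. ssNM-R was not called (0.22, limma adjusted p = 0.253), but was without mouse 1 (0.38, adjusted p = 0.0438). When libraries were scaled to equal pan-macrophage levels the direction turned, to -0.31 for NM-R (limma adjusted p = 0.123), while the median of all genes moved to -0.63, so that Mrc1 stayed above that median. That scaling uses the mean log2 value of the 10 pan-macrophage genes, among which Cd14 had the largest change (3.73). It was not run without Cd14, so how far a turn of direction rests on that gene was not tested.

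**Figure D2:**
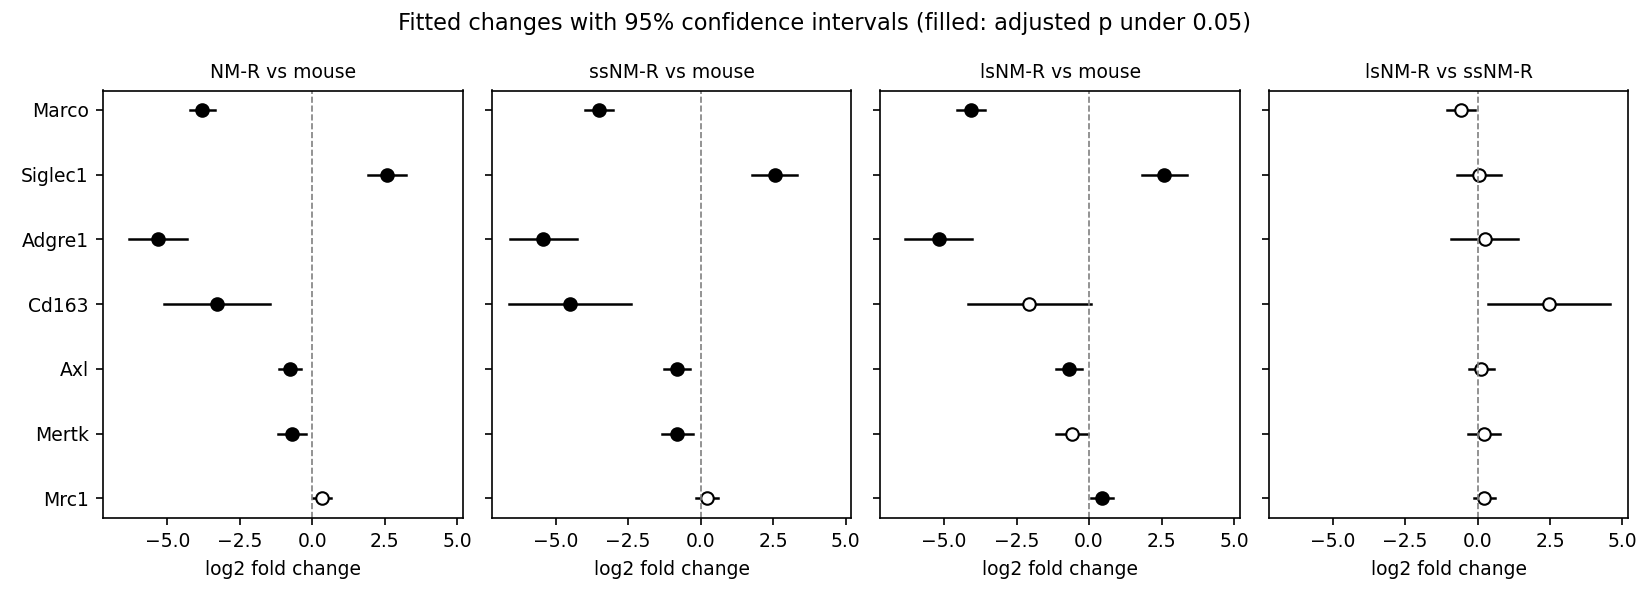
Log2 fold changes of the 7 receptors from limma (points) with 95% confidence intervals (lines) in the 4 comparisons; filled points have an adjusted p under 0.05. Against mouse the changes run from -5.30 (Adgre1) to 2.58 (Siglec1), and between lsNM-R and ssNM-R no point is filled.

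Taken by cohort, 6 of the 7 receptors were called between ssNM-R and mouse, where 75.5% of all genes were called, and 5 between lsNM-R and mouse, where 75.0% were. The calls that were not shared were those of Cd163, Mertk and Mrc1, each of which changed under the alternatives given above. The difference between the cohorts is the comparison below, and both share the same mice.

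Between the enlarged and the small NM-R spleens none of the 7 receptors was called. No gene of the table was called in this comparison by limma (0% of 12946; 1138 had an unadjusted p under 0.05), edgeR called 0 genes (1106 at an unadjusted p under 0.05), and DESeq2 called 38 higher and 16 lower, none of them a receptor. The spleens of the cohorts overlapped for all 7, while 13.1% of all genes did not overlap. The receptors nearest to a difference were Cd163 and Marco. Cd163 averaged 494 ± 439.5 normalized counts in lsNM-R and 103 ± 96.6 in ssNM-R (SD, n = 3 each), a log2 difference of 2.46 (95% confidence interval 0.35 to 4.57, limma unadjusted p = 0.0265, adjusted p = 0.534). It was 1.39 without ssNM-R 2 and 1.73 without lsNM-R 1, and 3.30 without ssNM-R 6. Marco averaged 169.9 ± 14.3 in lsNM-R and 261 ± 92.7 in ssNM-R (SD, n = 3 each), a log2 difference of -0.56 (95% confidence interval -1.05 to -0.07, limma unadjusted p = 0.0290, adjusted p = 0.534), and -0.30 without ssNM-R 3.

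For the other receptors the intervals between the cohorts held 0. The log2 difference was 0.05 for Siglec1 (95% confidence interval -0.72 to 0.81) and 0.24 for Adgre1 (-0.91 to 1.40). It was 0.14 for Axl (-0.30 to 0.58), 0.22 for Mertk (-0.33 to 0.76) and 0.23 for Mrc1 (-0.14 to 0.60). Without ssNM-R 6, which was the lowest NM-R spleen for each of Siglec1, Adgre1, Axl and Mertk, these became -0.28, -0.35, -0.068 and -0.036, and without lsNM-R 1 Siglec1 and Adgre1 became -0.20 and -0.13. The direction of these small differences thus depended on 1 spleen.

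Some receptor values also followed the depth of sequencing among the NM-R spleens. The 3 shallower and the 3 deeper libraries did not overlap for Marco, Siglec1 and Adgre1, as was the case for 14.8% of all genes, and each was higher in the shallower ones. Siglec1 was at 13898 to 17808 normalized counts in the shallower and at 7799 to 12439 in the deeper libraries. Adgre1 was at 84.8 to 120.1 against 25.9 to 82.5, although these are 62 to 85 reads against 41 to 117. Marco was at 185 to 362 against 157 to 179.

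With depth class as a term beside the groups, no gene of the table was called for depth in limma, while 1930 had an unadjusted p under 0.05. The limma log2 difference of deeper minus shallower libraries was -1.44 for Adgre1 (SE 0.30, adjusted p = 0.156). It was -0.86 for Siglec1 (SE 0.25, limma adjusted p = 0.203), -0.58 for Mertk (SE 0.19, limma adjusted p = 0.225) and -0.45 for Marco (SE 0.19, limma adjusted p = 0.307). For Cd163 and Mrc1 it was 0.16 (SE 1.05) and 0.08 (SE 0.18). Each class holds animals of both cohorts, and the part of depth in these values was not tested beyond this term. Against the mice, the receptors kept their direction in both classes. The mouse mean was 26.2 times that of the shallower and 54.7 times that of the deeper NM-Rs for Adgre1, 10.9 and 17.1 times for Marco, 1.56 and 1.83 times for Axl and 1.40 and 1.88 times for Mertk. For Cd163 it was 4.26 and 6.48 times, but the shallower class rests on lsNM-R 1, and without that spleen it was 29.96 times, so that the order of the classes turned. For Adgre1 the deeper class was at 84.7 times without lsNM-R 4. For Siglec1 the shallower NM-Rs were 7.50 times and the deeper 4.53 times the mouse mean. In the depth term the mouse libraries counted as shallower, although each held more reads than any shallower NM-R library. A difference from mouse with this term thus refers to the level of the shallower NM-Rs, and depth is not made equal between the species. With the term, the call of Mertk against mouse was lost (log2 fold change -0.40, limma adjusted p = 0.0677), as were those of Axl (-0.47, adjusted p = 0.0808) and Mrc1 (0.40, adjusted p = 0.113) in lsNM-R.

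**Figure D3:**
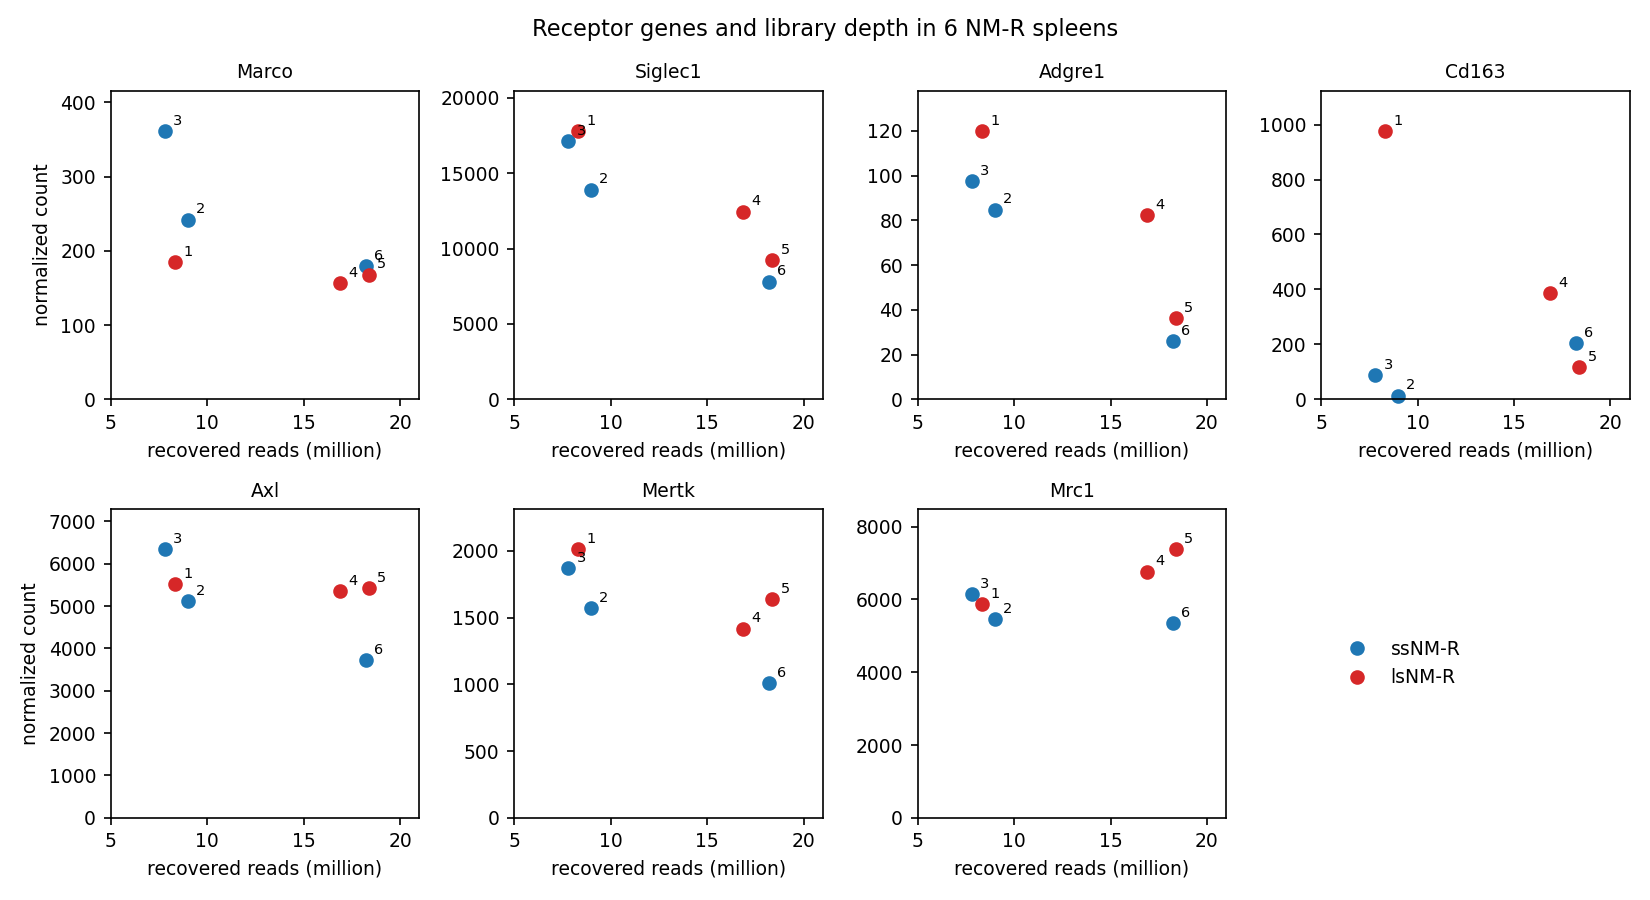
Normalized counts of the 7 receptors against the recovered reads of each library in the 6 NM-R spleens, coloured by cohort and numbered by replicate. The 3 shallower libraries lie above the 3 deeper ones for Marco, Siglec1 and Adgre1, and Cd163 shows no such order.

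The receptors differed in how much they varied between animals of one cohort. Pooled over the cohorts, the SD of the log2 values within NM-R groups was 1.75 for Cd163, larger than in 99.9% of the 8745 genes that averaged 100 normalized counts or more in NM-Rs. It was 0.95 for Adgre1 (99.3% of genes smaller), 0.53 for Siglec1 (95.9%), 0.37 for Mertk (88.0%) and Marco (87.8%) and 0.27 for Axl (74.5%). Adgre1 itself averaged only 74.5 in NM-Rs and is not among these genes, so its percentage sets a low count beside higher ones. Mrc1, at 0.14, was steadier than most genes among the NM-Rs (30.5% smaller), but not among the mice (0.33, with 91.0% of 8777 genes smaller). In the mice the SDs were between 0.16 (Marco) and 0.47 (Siglec1 and Cd163). Mouse 3 was the lowest mouse for all 7 receptors and mouse 1 the highest for 6 of them, all but Marco. This order was not particular to the receptors. Summed pan-macrophage genes were at 46992, 44485 and 42382 normalized counts in mice 1, 2 and 3, while erythroid markers ran the other way (14944, 26001 and 32192). The share of all genes with this order was not counted.

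Between genes, levels can be set side by side only per length. In the mice, normalized counts per 1000 bases of the longest annotated transcript were highest for Axl (2075 ± 406, SD, n = 3) and Marco (1447 ± 153). Mrc1 (923 ± 207), Adgre1 (813 ± 101) and Mertk (592 ± 144) followed, each overlapping its neighbour in this order. Cd163 (341 ± 101) and Siglec1 (339.8 ± 114) were lowest and did not differ beyond their spread. NM-R transcript lengths were not used here, so no such order is given for NM-R.

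Nearness was the root mean square difference of centred log2 values over the 9 spleens, among 9186 genes that averaged 100 normalized counts or more. Axl and Mertk had a gene in common among the 2 nearest to each. Slc37a2, a sugar phosphate transporter, was second nearest to Axl (0.12) and nearest to Mertk (0.11), Axl itself was second nearest to Mertk (0.13), and Myo5a, an unconventional myosin, was nearest to Axl (0.10). Mrc1 was most like Fndc3a (0.08), Marco was second most like Shisa5 (0.23) and Siglec1 was most like Epm2a, the glycogen phosphatase laforin (0.27). Adgre1 was most like Map3k9 (0.37) and the dendritic cell receptor Xcr1 (0.39). Both averaged 100 or more only through the mice, and were at 5.1 to 12.7 and 5.7 to 36.7 normalized counts in NM-Rs. Their lower level in NM-R thus follows from the filter and the measure. Nothing was close to Cd163, whose nearest genes Adamts5 and Parm1 were at 0.94 and 1.02 and also averaged 100 or more only through the mice. The remaining nearest rows, 1 each for Marco, Siglec1 and Mrc1, carry an NM-R identifier without a symbol. The measure is dominated by the difference between species, and all genes of a library share its depth.

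Tyro3, the kinase that completes the family of Axl and Mertk, was at 56.2 to 59.8 normalized counts in mice and at 267 to 358 in NM-Rs, and was called higher (log2 fold change 2.35, limma adjusted p = 9.27e-08). Gas6, the ligand of the family, was at 1419.9 to 1806 in mice and 1812 to 3395 in NM-Rs, and was called higher (0.59, limma adjusted p = 0.0076), but turned to -0.05 when libraries were scaled to equal pan-macrophage levels. Among 18 of 22 efferocytosis genes found in the table, 5 were called higher, 6 lower and 7 not called in NM-R, with a median log2 fold change of 0.06. The largest changes were those of Mfge8, the bridging protein between dying cells and integrins, which fell by 2.87 on the log2 scale, Anxa1 (2.80), Tyro3 and the hyaluronan and phosphatidylserine receptor Stab2 (-1.96). Pros1 is not listed under that symbol and was not analysed here.

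Haptoglobin, the plasma carrier whose complex with haemoglobin CD163 binds, was called higher in NM-R spleens. Hp was at 406 to 435 normalized counts in mice and 706 to 4377 in NM-Rs, a log2 fold change of 2.00 (limma adjusted p = 0.00294). The highest value was that of ssNM-R 6, and the next was 2843 in lsNM-R 1. The sum of the liver genes was also highest in ssNM-R 6, at 2589 against 326 to 1024 in the other NM-Rs. Whether the 2 are related was not tested. Of 5 haemoglobin clearance genes in the table (of 9 listed), 4 were called higher, with biliverdin reductases Blvrb (2.24) and Blvra (1.09) and the haem transporter Slc48a1 (0.41, and -0.23 under pan-macrophage scaling) beside Hp. Haem oxygenase Hmox1 was at 9943 to 12021 normalized counts in mice and 8373 to 10895 in NM-Rs and was not called (-0.24, adjusted p = 0.0641). Of 6 further genes of red pulp macrophages found (of 9 listed; Spic, Treml4 and Fcna are not listed under those symbols), 3 were called higher and 0 lower, namely Cd5l (1.28), the iron exporter Slc40a1 (0.61) and the integrin Itgad (0.54), the last 2 at -0.03 and -0.10 under pan-macrophage scaling. Against the same mice Hmox1, which is also on this list, was called lower in ssNM-R (-0.32, limma adjusted p = 0.0355) and not in lsNM-R (-0.15, adjusted p = 0.287). The median of this list was 0.23 for NM-R. The list does not count Adgre1, which was called lower and is kept among the receptors, and neither Spic nor Cd68 is among its genes found. The paper reports strongly reduced RNA of SpiC, Adgre1 and Cd68, which it names as classical markers of these cells in the mouse. The calls of this list thus leave out the markers for which a fall is reported.

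Relatives of the receptors moved in both directions, as did the genes of the whole table, of which 39.7% were called higher and 38.8% lower. Msr1, the class A scavenger receptor related to Marco, was at 55.4 to 84.9 normalized counts in mice and at 1317 to 2363 in NM-Rs (limma log2 fold change 4.68, adjusted p = 3.25e-08), so that its order between the species was opposite to that of Marco. Of 10 scavenger receptor genes in the table (of 12 listed), 7 were called higher and 2 lower, among them Scarf1 (2.88), Scara5 (-3.64) and Ssc5d (-2.50), with a median of 0.78. Of 3 Siglec family genes (of 9 listed), Cd22, the B cell Siglec, was lower (-3.41) and Mag higher (0.90). Of 5 C-type lectins (of 9 listed), 3 were called higher and 1 lower, with Clec4e (3.88), Clec7a (2.24), Pla2r1 (1.51) and Cd207 (-2.93). Mrc2, like Pla2r1 a relative of Mrc1, was not called (0.24, adjusted p = 0.252). Of 7 adhesion G protein-coupled receptors (of 10 listed), 4 were called higher and 2 lower, and Adgre5, the relative of Adgre1, was lower (-1.05) with Adgrg5 (-2.18), while Adgra2 (2.07) and Adgrl4 (0.93) were higher.

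**Figure D4:**
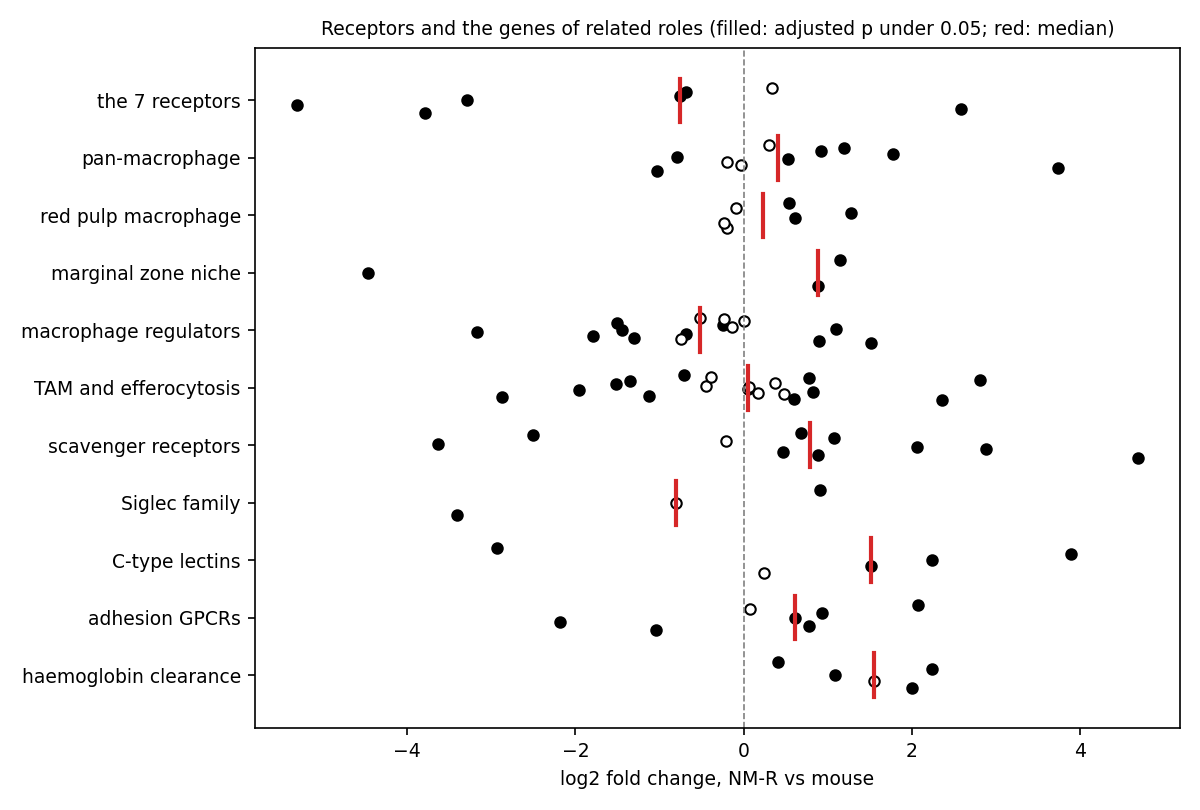
Log2 fold changes of NM-R against mouse from limma for the 7 receptors and for each gene of 10 lists of related roles; 1 point is 1 gene, filled at an adjusted p under 0.05, with a red line at the list median. The medians run from -0.81 (Siglec family) to 1.55 (haemoglobin clearance), and Adgre1 (-5.30) lies farthest to the left of all points shown.

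Of 15 growth factors and transcription factors of macrophages found (of 18 listed), 7 were called lower and 3 higher, with a median of -0.52, among them Irf4 (-3.17), Id3 (-1.50) and the growth factor Csf1 (1.52). Csf1r, the receptor of CSF1 that macrophages depend on, was at 12526 to 16036 normalized counts in mice and 4069 to 10116 in NM-Rs, and was called lower (log2 fold change -1.03, adjusted p = 0.00251 in limma). Among the 10 pan-macrophage genes in the table (of 16 listed), 5 were called higher, namely the complement genes C1qa (1.78), C1qb and C1qc (1.19), Cd14 (3.73) and Fcer1g (0.52, and -0.12 under pan-macrophage scaling), and Csf1r and Ctss were lower. In the marginal zone niche list only 3 of 9 genes were found, of which Lta, a lymphotoxin gene, was lower (-4.47) and Ltbr, the lymphotoxin β receptor, and Nr1h3, the nuclear receptor LXRα, were higher (1.14 and 0.88). The further marginal zone markers of that list, the Cd209 genes, Timd4 and Madcam1, are not listed under those symbols. Over all genes the median was 0.01. Among the 103 called genes of all lists, marker lists of other cells included, 8 turned direction under pan-macrophage scaling and 0 at equal totals, at equal upper quartiles or under quantile normalization.

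Markers of other cells moved between the species together with the receptors. B cell markers were called lower in 6 of 6 cases, with summed normalized counts of 41536 to 43570 in mice and 1879 to 5196 in NM-Rs. Dendritic cell markers were lower in 6 of 6 (5351 to 6880 in mice, 771 to 1206 in NM-Rs). Erythroid markers were higher in 6 of 6 (14944 to 32192 in mice, 71774 to 109582 in NM-Rs), as were neutrophil markers in 5 of 5 (6242 to 7948 and 23947 to 41598) and megakaryocyte markers in 3 of 3 (1699 to 2447 and 6502 to 12062). T cell markers were lower in 5 of 5 (7414 to 8067 and 2900 to 5477). Monocyte markers were lower in 2 of 3 (10917 to 13101 and 6604 to 10561), endothelial ones in 2 of 6 with 1 higher (7856 to 10252 and 4565 to 5136), and of 7 stromal ones 3 were lower and 2 higher (11637 to 14374 and 15418 to 27004). Of 5 liver genes, 2 were higher and 1 lower (125 to 287 and 326 to 2589), and no marker list was at 0 in any spleen. Their part in the values of the receptors was not tested.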

How the data were processed

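Spleen RNA of 9 animals was sequenced, with 1 library each. According to the labels and the methods, the authors aligned reads with STAR 2.5.3a, those of mice to mm9, counted them per gene with htseq-count (HTSeq 0.10.0), and named NM-R genes after mouse homologues. The deposited signal values are counts that the authors divided by 1 DESeq2 size factor per library, without a correction for length. The labels name an mRNA kit and a HiSeq instrument, whereas the methods name a total RNA kit and a NovaSeq instrument, and whether counting used strand is not given in the sources used here. Every value was a whole multiple of 1 step per library (100% of values, within 0.001), which returned the reads. Libraries held 7815326 to 18387599 reads, which sets a counting error for low values, and 0 pairs of libraries were identical.

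Groups came from the organism and spleen size in the labels. In limma 3.58.1 (R 4.3.3) log2(normalized count + 1) was fitted with 1 mean per group over all 9 spleens, a trended variance and 2-sided tests, adjusted by Benjamini-Hochberg over 12946 genes at 0.05. The steps were tested on simulated data. Where ratios or times are given, they are those of group means. Named beside the 7 receptors are, per list of related roles, at most the 4 largest called changes, with direct ligands, near relatives, Csf1r and Csf1, and per receptor the 2 genes most like it; Spi1, C1qb, Fcer1g, Ctss and the liver genes were chosen after their values were seen. The receptors and lists were chosen with earlier results of these data known. Alternatives on recovered reads used edgeR 4.0.16 and DESeq2 1.42.0. The others were pseudocounts of 0.5 and 5, a mean of at least 10, other scalings, no trend, only the compared groups, leaving out single spleens, depth class and a replicate block. Promoter windows were read from mm9 by GENCODE M1 gene starts. Some results that the rule for named genes would give are not reported here.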

Additional observations from a re-analysis of the deposited data

How the results depend on the processing

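The log2 fold changes of the 7 receptors in 4 comparisons gave 609 alternative values, of which 563 kept their direction and their side of the threshold. Those of Marco, Siglec1 and Adgre1 against mouse, for both cohorts and for their mean, kept both under all alternatives run, as did Cd163 for NM-R and ssNM-R. For NM-R against mouse, Mertk ranged from -0.84 to -0.50 with each spleen left out and was not called without mouse 1 or with depth class as a term (-0.40). Mrc1 ranged from 0.17 to 0.50 with each spleen left out, was called at equal upper quartiles (0.43), and was reversed under pan-macrophage scaling for NM-R (-0.31), ssNM-R (-0.46) and lsNM-R (-0.16). That scaling also took the genes called higher to 3039 for NM-R, 2796 for ssNM-R and 2921 for lsNM-R, since it lowers NM-R values against mouse ones (median of all genes -0.63, beside 0.01 as deposited and 0.10 at equal upper quartiles). The scaling rests on 10 genes, of which Cd14 rose most (log2 fold change 3.73), and was not run without Cd14. The receptors called higher were 2 at equal upper quartiles for NM-R, and between 1 and 2 with each spleen left out for NM-R, ssNM-R and lsNM-R. For lsNM-R they were 1 at equal totals, quantile normalization, pan-macrophage scaling and the depth term, in each case without Mrc1. The receptors called lower in lsNM-R were 5 under pan-macrophage scaling and with only the compared groups, and between 3 and 5 with each spleen left out. Between lsNM-R and ssNM-R, DESeq2 on recovered reads called 38 genes higher and 16 lower. With each spleen left out, this difference ranged from -0.28 to 0.29 for Siglec1, -0.35 to 0.72 for Adgre1, -0.068 to 0.32 for Axl and -0.036 to 0.41 for Mertk. The Siglec1 to Marco log2 ratio differed between NM-R and mouse by 6.23 to 6.58 with each spleen left out; without a mouse, 2 against 6 spleens cannot go below an exact permutation p of 0.0714. Except where a cause is named, the cause was not tested.

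Animals that share a replicate number share nothing else in the labels, and the deviations of such pairs from their group means correlated by 0.010, -0.0045 and 0.00076. A replicate block sets lsNM-R 1 against mouse 1, and ssNM-Rs 2 and 3 against mice 2 and 3. The other NM-R spleens have numbers of their own and do not enter its differences. Mrc1 was then at -0.055 in lsNM-R. The differences of lsNM-R and ssNM-R were then reversed for Siglec1 (-0.56), Axl (-0.48), Mertk (-0.32) and Mrc1 (-0.47), but they rest on 1 lsNM-R. Depth limits Cd163 and Adgre1 most, with as few as 10 and 41 reads in a library.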

Other observations

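Clec4f, a C-type lectin known as a marker of Kupffer cells, the macrophages of the liver, was chosen after its values were seen. It was at 0 reads in mice 1 and 2 and at 1 read in mouse 3. In NM-Rs it was at 354, 703 and 143 normalized counts in ssNM-Rs 2, 3 and 6 and at 473, 147 and 196 in lsNM-Rs 1, 4 and 5, which are 209 to 468 reads. As for Siglec1, Adgre1 and Marco, the 3 shallower NM-R libraries lay above the 3 deeper ones. Of the 5 liver genes in the table, 2 were called higher in NM-Rs, Clec4f and the apolipoprotein Apoa1 (16.4 to 200.96 normalized counts in NM-Rs and 6.02 to 21.7 in mice, a log2 change of 2.74 with adjusted p = 0.00502 in limma). Cyp2e1 was called lower (-3.95), and 2 were not called, Ttr and Alb, the latter at 95.3 to 223 normalized counts in mice and 60.2 to 2173 in NM-Rs. Whether the NM-R row counts the homologue of the same gene was not tested.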
